A study of Saccharomyces cerevisiae with 6 samples.

Results

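Small nucleolar RNAs (snoRNAs) were read out in polyA-selected RNA libraries of budding yeast, Saccharomyces cerevisiae, through the count rows whose identifier starts with snR. This prefix picked 81 of 7127 rows. All 81 matched a gene of the RefSeq annotation of build R64. By textbook class they are 47 box C/D snoRNAs, 29 box H/ACA snoRNAs and 5 entries of spliceosomal small nuclear RNAs (U1, U4, U6 and both forms of U5). The prefix is thus wider than the snoRNAs. A low-count filter kept 77 rows. The other 4, snR53, snR73, snR7-L and snR7-S, were too sparse to test.

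The libraries came from a haploid MATa strain of the S288c background, grown in YPD at 30 °C and extracted as a whole population. The mCh- group (3 libraries, mCh-_1 to mCh-_3) was collected 180 min after addition of 1 µM beta-estradiol, and the mCh* group (3 libraries, mCh*_1 to mCh*_3) at 0 min, in 3 independent experiments. Both groups carried the same alleles: trp1::TetO:TRP1 and lys4::LacO:hphNT1, the reporters his3::LacR-GFP:HIS3 and TetR-mCherry, an ade2 mutation, the recombinase gene leu2::Cre-EBD78:LEU2, and a tagged septin gene, Shs1-loxPmCherry with the Cln2(3'UTR) and the NatNT2 marker behind it, then a further loxP and GFP, from which the hormone-activated Cre excises the mCherry segment. The promoter that drives the Cre fusion is not given in the sources used here. There was no group with hormone and no excision, so excision, the hormone itself and 180 min of further growth cannot be told apart. In such bulk samples fewer cells of a type and less RNA per cell cannot be told apart either. The labelled cell type held against its markers: the 6 MATa genes averaged 92.1 to 542 CPM in mCh- libraries and 88.4 to 747 CPM in mCh* libraries (CPM, counts scaled to the composition-adjusted library size), whereas MF(ALPHA)1 and MF(ALPHA)2, the alpha-factor genes of the other mating type, stayed at means of 0.194 to 0.372 CPM, and STE3 and SAG1, the other MATalpha markers, at 5.05 to 16.3 CPM.

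SnoRNAs guide the chemical modification and cleavage of ribosomal RNA in the nucleolus. Box C/D snoRNAs pair with rRNA next to a box D or D' element and direct 2'-O-methylation by Nop1, and box H/ACA snoRNAs direct pseudouridylation by Cbf5. In yeast most are independent RNA polymerase II transcripts ended by the Nrd1, Nab3 and Sen1 proteins, some are cut from polycistronic RNAs, and a few are released from introns of host mRNAs. Mature snoRNAs have no long poly(A) tail. Precursors are given short A tails by the TRAMP complex before the nuclear exosome trims them, and RNAs that read through a snoRNA can carry ordinary tails. Which of these forms gave the reads was not tested, and the values below are levels in polyA-selected RNA, not levels of mature snoRNA.

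The following ends and guides, read from the RefSeq sequence of R64, belong to members whose differences are described below. The first lines give the last 30 bases of the annotated RNA, 5′ to 3′, with the box D core CTGA (C/D) or the last ACA (H/ACA) in capitals:
snR17a: tgggtgggtacaaatggcagtCTGAcaagt
snR17b: tgggtgggtacaaatggcagtCTGAcaagt
snR47: aactttgacaatagctttttaacaCTGAta
snR50: attaacctttacagaaccgctacaCTGAta
snR69: gagaagatttttttgtcaaacgctCTGAgt
snR5: tggttcgctctaggtgtACAtatcttcact
snR46: tccttttttctttcattcaatgacACAtac
These ends lie at chrXV:780567-780596 (plus strand, snR17a), chrXVI:281056-281085 (minus strand, snR17b), chrIV:541602-541631 (minus strand, snR47), chrXV:259549-259578 (plus strand, snR50), chrXI:364847-364876 (plus strand, snR69), chrXV:842577-842606 (plus strand, snR5) and chrVII:545537-545566 (plus strand, snR46). CTGA lay within the last 30 bases of 45 of 47 box C/D members (95.7%), of 2 of 29 box H/ACA members (6.90%) and of 13.3% of 6459 annotated genes. The box C core TGATGA lay within the first 30 bases of 37 of 47 box C/D members (78.7%), of 1 of 29 box H/ACA members and of 2.00% of the annotated genes. ACA lay anywhere within the last 30 bases of 20 of 29 box H/ACA members (69.0%), of 21 of 47 box C/D members (44.7%) and of 36.5% of the annotated genes. ACA sat exactly 3 bases before the end in 14 of 29 box H/ACA members (48.3%) and in 3 of 47 box C/D members. The ACA marked in snR46 sits there, whereas that in snR5 lies further from the annotated end.

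For 24 box C/D members a stretch of at least 10 paired bases, up to 14, covered an annotated methylation site at the place 5 bases before a box D-like element. The next lines give such guides, 5′ to 3′, with the box-like element and the base opposite the annotated target in capitals. Each is followed by its rRNA site with the annotated target base in capitals. They are shown for snR47, snR75, snR76 and snR52, which were lower in mCh-, and for snR190, which was higher:
snR47 guide: tgaatttcTtcgtCCGA
25S site: gaAgaaattca
snR75 guide: tagatgaCgagtCTGA
25S site: ctcGtcatcta
snR76 guide: agcactGggcaCTGA
25S site: tgccCagtgct
snR52 guide: gtgaacAatctCTGA
25S site: gatTgttcac
snR190 guide: tcttctttcCtcgtCCGA
25S site: Ggaaagaaga
The annotated target bases are A2220 (snR47), G2288 (snR75), C2197 (snR76), U2921 (snR52) and G2395 (snR190). They are counted from 1 at the 5′ end of the annotated 25S rRNA, whose copy used here lies on the minus strand of chromosome XII. T stands for U in all of these sequences.

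The libraries held 25987900 to 34032212 counts in mCh- and 28172017 to 33143295 in mCh*. The snR rows took 0.289%, 0.252% and 0.228% of counts in mCh-_1 to mCh-_3, against 0.220%, 0.223% and 0.296% in mCh*_1 to mCh*_3. Their summed level was 2622, 2290 and 2122 CPM in mCh- libraries, against 2413, 2468 and 3179 CPM in mCh* libraries. The highest sum was in mCh*_3, and the other 5 libraries overlapped between groups. Within its group, mCh*_3 was the highest library for 63 of 77 tested members, among them 29 of 29 box H/ACA members, and mCh*_1 was the lowest for 56 of 77, among them 29 of 37 box C/D members shorter than 130 bases. The median log2 ratio of a library to the other 2 of its group was 0.49 for mCh*_3 and -0.45 for mCh*_1 over the 77 members, and -0.01 for each of these libraries over all tested rows. Counts below are therefore also given without single libraries where these change them.

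**Figure D1:**
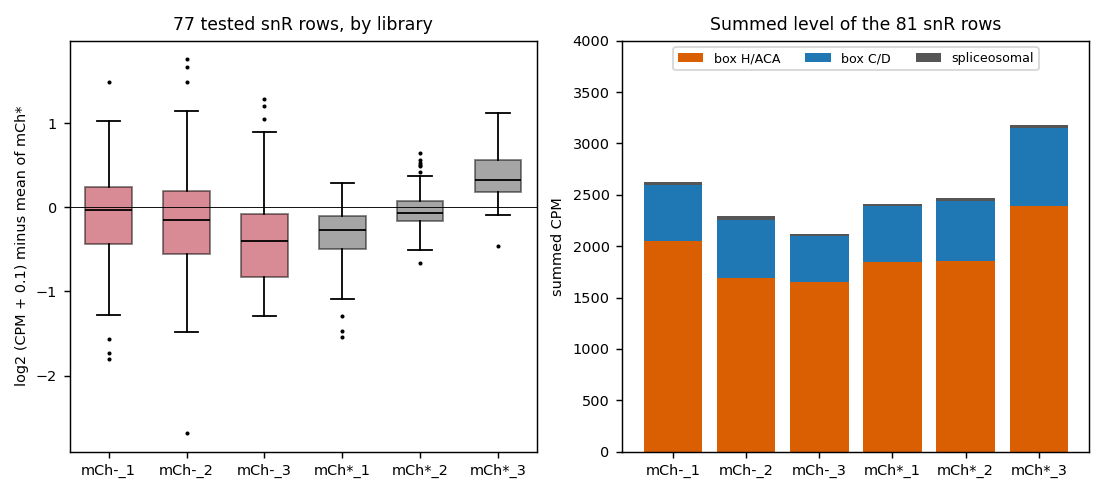
Left, log2 (CPM + 0.1) of the 77 tested snR rows in each library minus their mCh* mean (boxes, quartiles with the median; whiskers, 1.5 times the interquartile range; dots, rows beyond). Right, summed CPM of the 81 snR rows per library by class, with box H/ACA rows the largest share; mCh*_3 is the highest at 3179 CPM, and mCh-_3 the lowest at 2122 CPM.

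The comparison of mCh- with mCh* asked how RNA levels differed 180 min after the hormone that triggers excision of mCherry. Of the 77 tested members 4 were higher and 22 were lower in mCh- at an adjusted p below 0.05 (quasi-likelihood test of edgeR, Benjamini-Hochberg adjusted over all 6220 tested rows), and 51 were not called. The share called was 33.8%, against 57.7% of all tested rows. The share lower, 28.6%, was close to the 28.2% of all rows, and the share higher was 5.19%, against 29.5% of all rows. Libraries of the 2 groups did not overlap for 23 members (29.9%), against 63.4% of all rows, with 19 of the 77 lower in all mCh- libraries (30.8% of all rows) and 4 higher (32.7% of all rows). The members' median log2 fold change was -0.25, against 0.02 over all rows, and their median SE was 0.21, against 0.09. For 39 members the 95% confidence interval lay within 2-fold in either direction. When libraries were scaled by total counts alone, which moved the median of all rows to 0.27, 9 members were higher and 10 lower, with a median of 0.00. Those 9 and 10 included the 4 that were higher and 10 of the 22 that were lower. That scale also called far more of all rows higher than lower. The share of members called higher stayed below that of all rows, and their median stayed below 0.27. Without mCh*_3, 10 were higher and 17 lower, with a median of 0.00, against 0.01 over all rows. All rows were then called higher and lower in similar numbers, and the members' share higher was again below that of all rows. Without mCh*_1 the count of higher members was 2, and without mCh-_1 it was also 2.

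**Figure D2:**
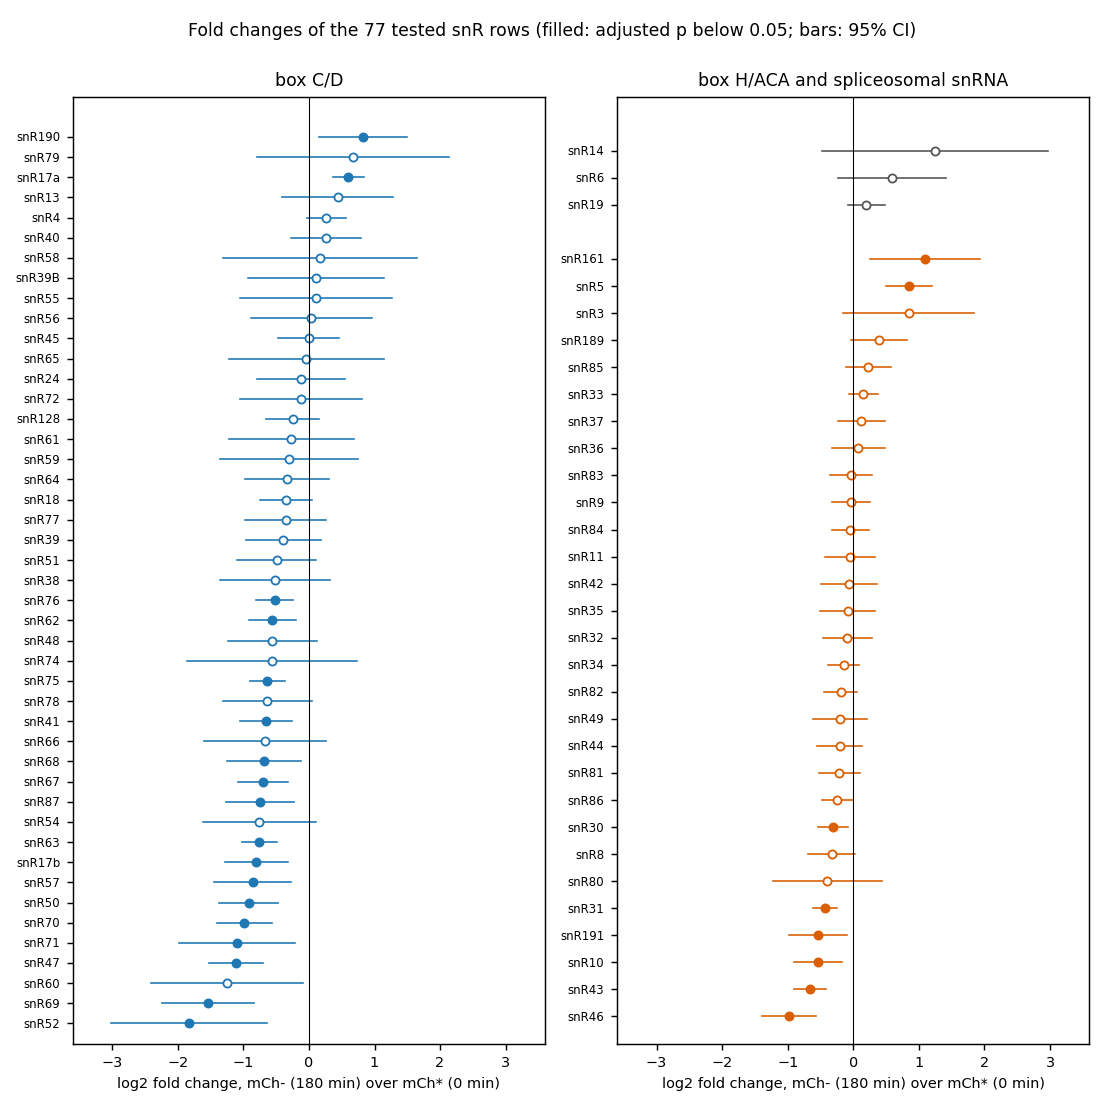
Log2 fold change of mCh- (180 min) over mCh* (0 min) for each of the 77 tested snR rows, ordered within box C/D (blue, left), spliceosomal snRNA (grey, upper right) and box H/ACA (orange, right); bars are 95% confidence intervals and filled points passed an adjusted p of 0.05. Filled points are 4 to the right of 0 and 22 to the left.

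By class, 2 of 45 tested box C/D members were higher (4.44%, against 29.5% of all rows), 16 lower (35.6%, against 28.2% of all rows) and 27 not called, and their median log2 fold change was -0.52. Of 29 box H/ACA members 2 were higher (6.90%), 6 lower (20.7%) and 21 not called, with a median of -0.09. The classes also differed in precision, with a median SE of 0.30 for box C/D and 0.16 for box H/ACA. The difference between the classes was not tested. The count of higher box C/D members was 1 without mCh*_1 or without any 1 of the mCh- libraries, and 5 without mCh*_3. The count of higher box H/ACA members was 1 without mCh*_1, mCh*_2, mCh-_1 or mCh-_3, and 5 without mCh*_3, and that of lower ones was 3 without mCh*_3 or without mCh-_2. With total counts alone as the scale, 5 box H/ACA members were higher and 2 lower, and 8 box C/D members were lower. Other single RNAs that lack a long poly(A) tail differed in direction. The U2 RNA LSR1 had a log2 fold change of 0.39 (SE 0.12, adjusted p = 0.013), and the RNase MRP RNA NME1 had -0.49 (SE 0.16, adjusted p = 0.0194). The signal recognition particle RNA SCR1 and the RNase P RNA RPR1 were not called, at 0.07 and 0.33. The tRNA rows leaned lower. Of 71 tested, of 299 in all, 22 were called lower (31.0%, near the 28.2% of all rows), 0 higher and 49 not called. Their median was -0.998, with a median SE of 0.62, and 66 of the 71 lay below 0, against 3035 of 6220 over all rows. The 299 rows summed to 89.7, 117 and 68.8 CPM in mCh- libraries, against 146, 158 and 185 CPM in mCh* libraries.

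Among the snoRNAs of pre-rRNA cleavage, the gene copies of U3, the box C/D RNA that holds the early small-subunit precursor together, differed in direction. snR17a (chrXV:780107-780596, plus strand) had 25.4, 25.5 and 26.7 CPM in mCh- libraries, against 16.0, 18.6 and 16.5 CPM in mCh* libraries. All 3 mCh- libraries were higher, 1.52-fold on the fitted scale, a log2 fold change of 0.60 (SE 0.11, adjusted p = 0.000239). snR17b (chrXVI:281056-281517, minus strand) had 5.18, 9.53 and 6.93 CPM in mCh- libraries, against 10.9, 10.7 and 16.1 CPM in mCh* libraries. All 3 mCh- libraries were lower here, with a log2 fold change of -0.81 (SE 0.23, adjusted p = 0.00662, and 0.0516 with total counts alone as the scale). The log2 ratio of snR17a to snR17b counts was 2.29, 1.42 and 1.94 in mCh-, against 0.56, 0.79 and 0.04 in mCh*. The ratio was higher in all 3 mCh- libraries, by 1.42 on average (two-sided exact permutation test p = 0.10, the smallest p that 3 against 3 allows; the ratio was chosen after its values were seen). The copies agree at 404 of 495 aligned positions (81.6%) and share their last 30 bases, printed above, so the split of reads between them is uncertain. Both genes are known to carry an intron, which the annotation used here includes in its single exon. The alignment covers these introns, and the identity without them was not computed. snR17a also overlaps IRC13, which had 22 counts or fewer in every library.

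U14, encoded by snR128, directs methylation of 18S rRNA at C414 and takes part in cleavage. It had 42.9, 68.7 and 45.7 CPM in mCh- libraries, against 45.0, 58.3 and 83.0 CPM in mCh* libraries, and the groups overlapped. Its log2 fold change was -0.25 (95% confidence interval -0.65 to 0.16, adjusted p = 0.278, and 0.0347 without mCh-_2). snR30, a box H/ACA RNA of 18S rRNA processing, had 136, 128 and 132 CPM in mCh- libraries, against 136, 160 and 194 CPM in mCh* libraries. Its mCh- libraries were all lower, with the closest pair nearly equal, and its log2 fold change was -0.31 (SE 0.11, adjusted p = 0.0199). This call was lost without mCh*_3 (adjusted p = 0.126), without mCh-_2 (0.0657) and with total counts alone as the scale (0.654). snR10, which takes part in cleavage and directs pseudouridylation of 25S rRNA at U2923, had 9.47, 7.82 and 10.2 CPM in mCh- libraries, against 13.1, 11.1 and 15.9 CPM in mCh* libraries. Its groups did not overlap, and its log2 fold change of -0.54 (SE 0.17, adjusted p = 0.0139) was likewise lost without mCh*_3 (adjusted p = 0.0725), without mCh-_2 (0.056) and with total counts alone as the scale (0.162). snR4 and snR45, which guide acetylation of 18S rRNA, were not called. snR4 had a log2 fold change of 0.26 (95% confidence interval -0.04 to 0.56, adjusted p = 0.123), and was called higher without mCh*_3 (adjusted p = 0.000704) and with total counts alone as the scale (0.00848). snR45 had a log2 fold change of -0.00 (95% confidence interval -0.47 to 0.46).

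The other rises were snR5, snR161 and snR190. snR5, a box H/ACA RNA for 25S rRNA positions U1004 and U1124 (chrXV:842403-842606, plus strand), had 26.4, 22.6 and 22.7 CPM in mCh- libraries, against 10.2, 12.2 and 17.3 CPM in mCh* libraries. All mCh- libraries were above all mCh* libraries, with a log2 fold change of 0.85 (SE 0.16, adjusted p = 0.000385). snR161, a box H/ACA RNA for 18S rRNA positions U632 and U766, had 4.31, 1.92 and 3.51 CPM in mCh- libraries, against 1.21, 1.20 and 2.17 CPM in mCh* libraries. The groups overlapped, since mCh-_2 was below mCh*_3, and the log2 fold change was 1.09 (SE 0.40, adjusted p = 0.0278). snR190, a box C/D RNA annotated for 25S rRNA methylation at G2395, had 4.08, 3.84 and 4.93 CPM in mCh- libraries, against 1.60, 2.90 and 2.75 CPM in mCh* libraries. Its groups did not overlap, with a log2 fold change of 0.82 (SE 0.31, adjusted p = 0.0349). The snR161 call was lost without mCh*_1 (adjusted p = 0.0848), mCh*_2 (0.108), mCh-_1 (0.149) or mCh-_3 (0.0833), and the snR190 call without mCh*_1 (0.116) or without mCh-_1 (0.0681), mCh-_2 (0.0532) or mCh-_3 (0.135). The snR17a and snR5 calls held in all 12 alternative fits.

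Among the falls, snR69, a box C/D guide for 25S rRNA methylation at C2948 (chrXI:364776-364876, plus strand), had 1.10, 1.33 and 1.59 CPM in mCh- libraries, against 4.13, 3.57 and 4.02 CPM in mCh* libraries. The groups lay well apart, with a log2 fold change of -1.54 (SE 0.33, adjusted p = 0.000907) at 38 to 111 counts per library. snR47, the guide for 18S rRNA A619 and 25S rRNA A2220 whose guide stretch is printed above (chrIV:541602-541700, minus strand), had 5.96, 4.99 and 5.18 CPM in mCh- libraries, against 9.62, 11.3 and 14.1 CPM in mCh* libraries. Every mCh- library was lower, with a log2 fold change of -1.12 (SE 0.19, adjusted p = 0.000137). snR46, a box H/ACA RNA for 25S rRNA U2865 (chrVII:545370-545566, plus strand), had 9.58, 8.31 and 7.15 CPM in mCh- libraries, against 12.5, 15.7 and 21.4 CPM in mCh* libraries. It too did not overlap, with a log2 fold change of -0.99 (SE 0.19, adjusted p = 0.000416). snR50, the guide for 25S rRNA G867, had 8.54, 6.21 and 5.01 CPM in mCh- libraries, against 14.8, 10.3 and 12.4 CPM in mCh* libraries, again with no overlap, and a log2 fold change of -0.92 (SE 0.21, adjusted p = 0.0016). snR71, a guide for 25S rRNA A2946, had 1.82, 2.20 and 1.31 CPM in mCh- libraries, against 1.60, 4.40 and 5.39 CPM in mCh* libraries. Its groups overlapped through mCh*_1, and its log2 fold change of -1.10 (SE 0.42, adjusted p = 0.0343) was lost without mCh*_2 (adjusted p = 0.117), mCh*_3 (0.182), mCh-_1 (0.0714) or mCh-_3 (0.115), by limma-voom (0.0703) and with total counts alone as the scale (0.0966). The snR69, snR47, snR46 and snR50 calls held in all 12 alternative fits, as did those of snR43, snR52, snR63, snR67, snR70 and snR75.

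**Figure D3:**
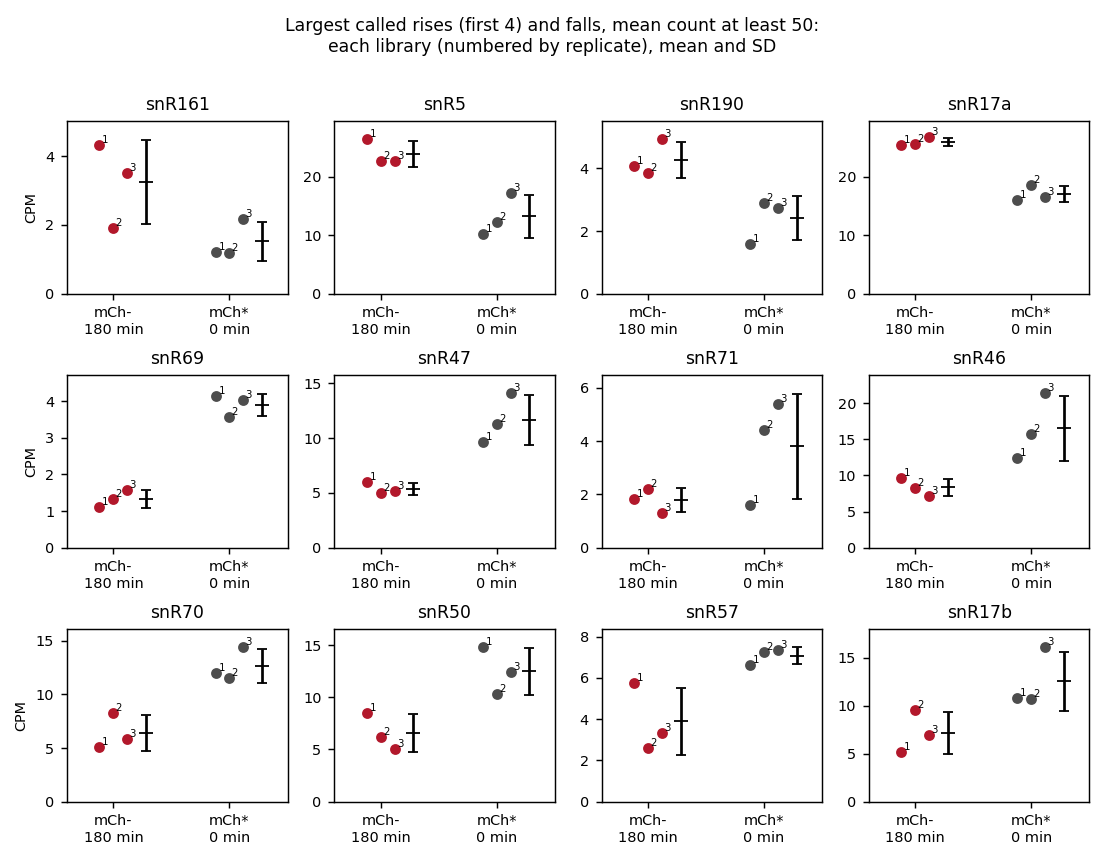
CPM in each library (red, mCh- at 180 min; grey, mCh* at 0 min; points numbered by replicate) with the mean and SD (n = 3) for the 4 called rises and the 8 largest called falls among members with a mean of at least 50 counts. Groups overlap for snR161 and snR71 and lie apart for the other 10.

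The only snoRNA of the set made by RNA polymerase III is snR52, a guide for 18S rRNA A420 and 25S rRNA U2921. It had 0.405, 0.175 and 0.794 CPM in mCh- libraries, against 1.44, 1.87 and 1.70 CPM in mCh* libraries. It was lower in all 3, with a log2 fold change of -1.83 (SE 0.56, adjusted p = 0.0111), at 5 to 56 counts per library. The other RNA polymerase III transcript among the snR rows, the U6 RNA snR6, had 8.77, 19.8 and 5.20 CPM in mCh- libraries, against 4.36, 7.33 and 10.6 CPM in mCh* libraries. Its groups overlapped and its log2 fold change of 0.59 was not called (SE 0.38, adjusted p = 0.203). It was called higher without mCh-_3 (adjusted p = 0.0299), and its value was -0.10 without mCh-_2. The U1 RNA snR19 was not called either, at 0.20 (95% confidence interval -0.09 to 0.48, adjusted p = 0.222, and 0.00988 with total counts alone as the scale). The U4 RNA snR14 had at most 24 counts and was not called, at 1.24 (95% confidence interval -0.48 to 2.96). Of the U5 forms, snR7-L had 4 to 12 counts per library and snR7-S, whose annotated span lies inside that of snR7-L, was at 0 in all 6. A read on snR7-S thus also lies on snR7-L. How such reads were counted is not given, so these counts cannot be read as U5 levels.

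Levels per length spanned more than the differences between groups. They were themselves correlated with annotated length (rho = 0.37 over the 77 tested members), and the part of length in the order below was not tested. Over all 6 libraries the highest mean was that of snR33, a box H/ACA RNA for 25S rRNA U1042, at 848 CPM per kb, and the next 4 were snR83 (661), snR4 (634), snR86 (606) and snR31 (554). snR33 led in each group, but the order of the others differed: snR4 was next at 692 CPM per kb in mCh- libraries, and below snR83, snR86 and snR31 at 576 CPM per kb in mCh* libraries. The lowest tested snoRNA was snR58, a box C/D RNA for 25S rRNA C663, at 3.84 CPM per kb. Among the 5 members with the highest counts, snR30 is described above and snR31, for 18S rRNA U999, was lower. It had 116, 99.7 and 103 CPM in mCh- libraries, against 133, 138 and 158 CPM in mCh* libraries, with no overlap and a log2 fold change of -0.43 (SE 0.09, adjusted p = 0.000672, and 0.108 with total counts alone as the scale). snR86, for 25S rRNA U2314 and the longest member at 1004 bases, held 21.6% to 25.3% of snR counts in mCh- libraries and 22.0% to 28.6% in mCh* libraries. It was not called (log2 fold change -0.24, SE 0.11, adjusted p = 0.0743), though it was called lower by DESeq2 (adjusted p = 0.0303), without mCh*_2 (0.0467) and without mCh-_1 (0.00465). snR83, for 18S rRNA U1290 and U1415, was not called, at -0.03 (95% confidence interval -0.35 to 0.28). Nor was snR33, at 0.15 (95% confidence interval -0.07 to 0.38). snR33 was called higher without mCh*_3 (adjusted p = 0.0219) and with total counts alone as the scale (0.00566).

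Polycistronic RNAs place several box C/D snoRNAs on 1 precursor, from which the endonuclease Rnt1 releases them. Of 17 members in 5 such units 15 were tested, with 1 higher (6.67%, against 29.5% of all rows), 6 lower (40%, against 28.2%) and 8 not called, and their median was -0.52 (log2 fold change). Levels per length differed within a unit. In the 7-member RNA on chromosome XIII (chrXIII:297278-298651) the mean over all libraries was 488 CPM per kb for snR76 and 1.73 CPM per kb for snR73, a ratio of 283. Its members snR75 and snR76, whose guides are printed above, were lower. snR75 had 18.2, 17.2 and 13.6 CPM in mCh- libraries, against 24.1, 26.6 and 25.3 CPM in mCh* libraries, with a log2 fold change of -0.63 (SE 0.13, adjusted p = 0.000479). snR76 had 40.5, 55.6 and 35.3 CPM in mCh- libraries, against 65.4, 56.7 and 65.8 CPM in mCh* libraries, with a log2 fold change of -0.52 (SE 0.13, adjusted p = 0.00353, and 0.117 with total counts alone as the scale). Neither overlapped between groups, although mCh-_2 came close to mCh*_2 for snR76. The 4 other tested members of this unit, snR72, snR74, snR77 and snR78, had log2 fold changes of -0.64 to -0.12 and were not called, and the untested snR73 had 3, 0 and 4 counts in mCh- libraries, against 9, 10 and 6 in mCh* libraries.

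**Figure D4:**
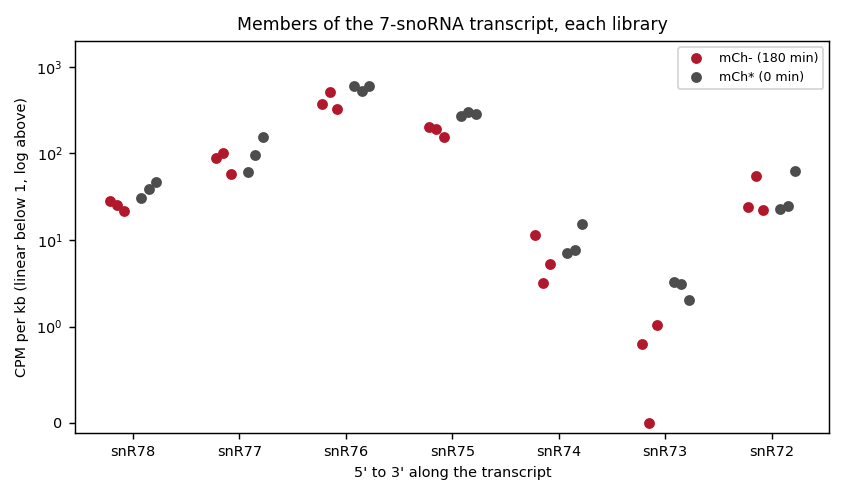
Level in CPM per kb of annotated length for each member of the 7-snoRNA RNA, 5′ to 3′, in the 3 mCh- libraries (red, left) and the 3 mCh* libraries (grey, right); the axis is linear below 1 and logarithmic above. snR76 and snR75 are the highest, snR73 the lowest, with a count of 0 in mCh-_2.

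In the unit of snR41, snR70 and snR51, the first 2 were lower. snR70, a guide for 18S rRNA C1639, had 5.13, 8.27 and 5.83 CPM in mCh- libraries, against 12.0, 11.5 and 14.4 CPM in mCh* libraries, did not overlap, and had a log2 fold change of -0.98 (SE 0.20, adjusted p = 0.000543). snR41 had -0.66 (SE 0.18, adjusted p = 0.00654, and 0.0813 with total counts alone as the scale), and snR51 had -0.49 and was not called (95% confidence interval -1.09 to 0.11). In the unit of snR57, snR55 and snR61, the first, a guide for 18S rRNA G1572, had 5.73, 2.62 and 3.31 CPM in mCh- libraries, against 6.62, 7.27 and 7.35 CPM in mCh* libraries. Its groups did not overlap, with a log2 fold change of -0.86 (SE 0.28, adjusted p = 0.0151), a call lost without mCh-_2 (adjusted p = 0.0556) and with total counts alone as the scale (0.0756). snR55 and snR61 were not called, at 0.11 and -0.27. snR67 was lower, at 11.8, 9.36 and 7.09 CPM in mCh- libraries, against 17.3, 14.5 and 14.3 CPM in mCh* libraries, without overlap (log2 fold change -0.70, SE 0.18, adjusted p = 0.00359). Its partner snR53 was too sparse to test, at 7, 0 and 0 counts in mCh- libraries, against 12, 10 and 9 in mCh* libraries. snR190 and snR128 share a precursor, in which snR190 was higher and snR128 was not called. The log2 ratio of snR128 to snR190 counts was 3.39, 4.15 and 3.21 in mCh-, against 4.80, 4.32 and 4.91 in mCh*. It was lower in all 3 mCh- libraries, by -1.09 on average (two-sided exact permutation test p = 0.10, the smallest possible; chosen after its values were seen).

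The 8 intronic members were each set beside the host gene whose intron holds them. All 8 host genes were lower, against 28.2% of all rows, with a median log2 fold change of -0.76. Of the 8 snoRNAs 1 was called lower (12.5%), with a median of -0.37, and all 8 had values below 0. Precision differed, with an SE of 0.08 to 0.11 for the hosts and 0.16 to 0.49 for the snoRNAs. The count of lower snoRNAs was 2 without mCh-_1, where snR44 was called too (adjusted p = 0.0467). snR18, in the elongation factor gene EFB1, was called lower without mCh*_1 (adjusted p = 0.0172) and without mCh-_2 (0.0485). The fitted value of the snoRNA was above that of its host in all 8 pairs. snR191, a box H/ACA RNA in an intron of the 60S assembly GTPase gene NOG2, was the called one: it had 11.9, 7.19 and 8.19 CPM in mCh- libraries, against 13.1, 10.4 and 16.1 CPM in mCh* libraries. Its groups overlapped, and its log2 fold change of -0.54 (SE 0.21, adjusted p = 0.0358) stood beside -1.10 (SE 0.08) for NOG2. The snR191 call was lost without mCh*_1 (adjusted p = 0.0637), mCh*_3 (0.16), mCh-_2 (0.127) or mCh-_3 (0.0991), and with total counts alone as the scale (0.257). No other intronic snoRNA took its place without mCh*_3 or mCh-_3 or with total counts alone. snR24, a box C/D RNA in ASC1, the gene of a small-subunit ribosomal protein, had -0.12 (95% confidence interval -0.79 to 0.55), and ASC1 had -0.79 (SE 0.10). The log2 ratio of snR24 to ASC1 counts was higher in all 3 mCh- libraries, by 0.69 (exact permutation p = 0.10, the smallest that 3 against 3 allows). For the other 7 pairs the ratios overlapped between groups, and over the 8 pairs exact permutation p-values ran from 0.10 to 0.90, the smallest being 0.533 after Benjamini-Hochberg adjustment. With 3 libraries a group none of these p-values could pass 0.05. The snoRNA rows held 0.174% to 15.3% of their host's CPM in mCh- and 0.109% to 12.3% in mCh*, with snR24 the lowest and snR44, in the ribosomal protein gene RPS22B, the highest. Reads of an unspliced host or an excised intron can also fall on the snoRNA row, and their part in these values was not tested.

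**Figure D5:**
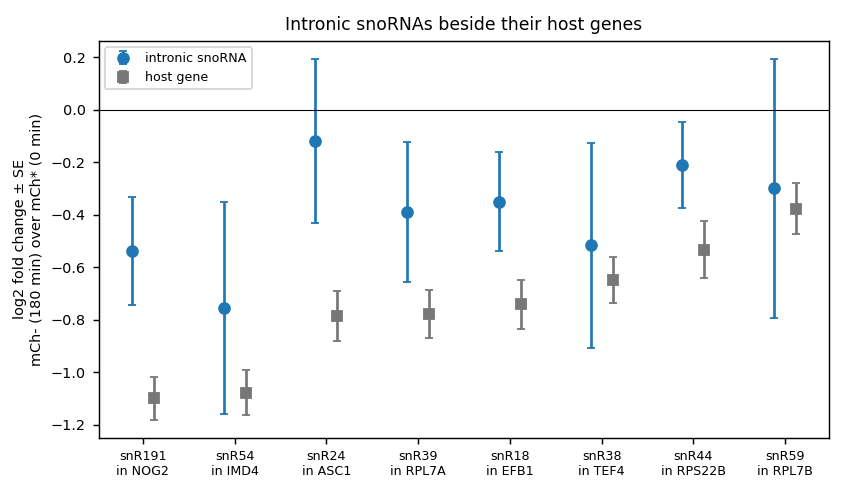
Log2 fold change of mCh- (180 min) over mCh* (0 min) with SE for the 8 intronic snoRNAs (blue circles) and their host genes (grey squares), ordered by the host's value. All 8 host points lie below their snoRNA's.

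Other members sit close behind a gene on the same strand. In 28 pairs the nearest gene upstream ended within 600 bases of a tested member. Across these pairs the Spearman correlation of the log2 fold changes was -0.33, given as a description, since all pairs come from the same 6 libraries. In 6 of them the upstream gene encodes a ribosomal protein. All 6 of these genes were lower, against 28.2% of all rows, with a median log2 fold change of -0.96. Their 6 snoRNAs had a median of -0.10, and 1 of them, snR57 behind RPS25B, was called lower. Here too precision differed, with an SE of 0.08 to 0.09 for the 6 genes and 0.11 to 0.40 for the 6 snoRNAs. snR5 rose between CAF20, a translation repressor gene at -0.76 (SE 0.10), and HEM4, a haem synthesis gene at 0.69 (SE 0.11). snR69 fell between PTM1 at 0.47 (SE 0.07) and RGT1, a glucose-response repressor gene, at 0.46 (SE 0.11). snR47 fell between NRG1, a glucose repressor gene at -1.02 (SE 0.11), and YDR042C at -1.84 (SE 0.18). Reads running in from neighbours were not tested. In the 150 bases downstream of the 51 single-gene snoRNAs the Nrd1 motif, GTAA or GTAG on the sense strand, occurred for 43 (84.3%), against 66.7% of 6021 protein-coding genes behind their stop codon, and the Nab3 motif TCTT for all 51, against 66.6%. The Nrd1 motif occurred behind 11 of 15 single-gene members that were lower and 29 of 33 that were not called. These matches describe letters, not binding.

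Among transcripts of the proteins that package, process and tail snoRNAs, 51 of 73 tested were lower (69.9%, against 28.2% of all rows) and 7 higher (9.59%, against 29.5% of all rows; 4 higher without mCh*_1, and 4 without mCh-_1; 13 higher with total counts alone as the scale). All 4 box C/D core protein genes were lower, from NOP1, the methyltransferase, at -1.10 (SE 0.13) to NOP58 at -0.84 (SE 0.09), as were all 4 box H/ACA core genes, from NOP10 at -1.39 (SE 0.09) to CBF5, the pseudouridine synthase, at -0.87 (SE 0.09). Of 11 snoRNP assembly genes 10 were lower, among them the nucleolar chaperone gene SRP40 at -1.21 (SE 0.08), and HIT1 was not called. Of 12 termination genes 6 were lower (50%, against 28.2% of all rows) and 6 not called. The lower ones included SEN1, a helicase gene, at -0.47 (SE 0.09), and NRD1 at -0.29 (SE 0.08), and NAB3 was not called at -0.00 (95% confidence interval within 2-fold). Of 8 end-processing genes 5 were lower and 2 higher. RNT1 had -0.88 (SE 0.08), LHP1, the La protein gene, had -1.22 (SE 0.08), and the cytoplasmic exonuclease gene XRN1 had 0.48 (SE 0.09). Of 18 exosome and TRAMP genes 16 were lower and 1 higher: the TRAMP poly(A) polymerase genes differed, with TRF5 at -1.23 (SE 0.12) and PAP2 at 0.29 (SE 0.10). Of 16 genes for poly(A) tail synthesis, binding and trimming 6 were lower (37.5%, against 28.2% of all rows) and 4 higher (25%, against 29.5%). Among them were PAB1, the poly(A)-binding protein gene, at -0.45 (SE 0.09), and CFT1 at 0.74 (SE 0.10). The higher ones included PAN2 at 0.27 (SE 0.08) and PAN3 at 0.45 (SE 0.08), genes of a nuclease that shortens tails. The part of these shifts in the snoRNA counts was not tested.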

How the data were processed

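Per the labels' protocols, DNase-treated total RNA was selected on poly-T beads, fragmented, copied with random primers and made into stranded dUTP libraries. The authors deposited raw counts per gene, in whole numbers and without normalization, for 3 mCh- and 3 mCh* libraries in 1 table. The tools named per the submitters' processing notes are HTSeq 0.6.1p1, STAR 2.5.3a, cutadapt 1.10 and bcl2fastq 2.20.0.422, and the builds are sacCer3 and R64. Whether counting used the strand, and how reads with several matches were handled, is not given in the sources used here, so near-identical, overlapping and antisense genes are uncertain.

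In R 4.3.3, edgeR 4.0.16 was fitted to the counts of all rows (TMM factors, filterByExpr by group, quasi-likelihood F test of mCh- against mCh*, two-sided), with Benjamini-Hochberg adjustment over 6220 of 7127 rows, called at an adjusted p below 0.05. The groups came from the sample titles. CPM are counts per 1000000 of the TMM-adjusted library size, and CPM per kb divides by annotated length. Log2 ratios of counts (pseudocount 0.5) were compared by exact permutation over the 20 arrangements of the 6 libraries. Depth was 25987900 to 34032212 counts per library. The edgeR p-values rest on the spread between 3 libraries a group, moderated over all tested rows. SEs and confidence intervals were derived from the log2 fold change and its F statistic. No pair of libraries in a group agreed within counting noise.

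The snR members, their classes, the gene lists and the rule for named members were chosen with earlier results of these data known. Named are the 8 largest rises and falls among called members with a mean of at least 50 counts, the 5 highest counts, cleavage and acetylation snoRNAs, intronic, polycistronic and spliceosomal members, snR52, and up to 6 called genes per list by adjusted p. HIT1, NAB3, PAP2, snR58, members cited for a lost or kept call, and the neighbours of single members were picked after their values were seen. TLC1 and REX1 were not analysed here. Classes and roles follow textbook knowledge, and sequences, positions and rRNA targets follow RefSeq R64, the build named in the notes. Of the 55 methylation positions annotated for 43 members, 53 fell on the base named.

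Alternatives were DESeq2 1.42.0 size factors, total counts as the only scale, no low-count filter, DESeq2, limma-voom (limma 3.58.1), the replicate number as a block, and each library left out. The test was tried on simulated counts before use. Figures were drawn with matplotlib 3.10.9.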

Additional observations from a re-analysis of the deposited data

How the results depend on the processing

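Of the 26 called members, 12 (2 higher, 10 lower) were called in the same direction in all 12 alternative fits, 35 members were called in none, and no called member changed sign. Scaling by total counts alone gave 9 members higher and 10 lower with a median log2 fold change of 0.00345. It gave 8 box C/D members lower, 5 box H/ACA members higher and 2 lower, 1 spliceosomal row higher, and 13 machinery genes higher and 36 lower. With it, all rows called higher numbered 2996, against 1833, and all rows called lower 969, against 1754. Leaving out each library in turn gave 2 to 10 members higher, 1 to 5 box C/D and 1 to 5 box H/ACA members higher, 3 to 8 box H/ACA members lower, 0 to 1 spliceosomal rows higher, 4 to 6 machinery genes higher and a median between -0.41 and 0.00213. The highest of these medians, and 10 members, 5 box C/D members and 5 box H/ACA members higher, came without mCh*_3. With the replicate number as a block, 4 members were higher and 22 lower, 4 and 21 of them the same (snR71 was lost, adjusted p = 0.0826, and snR86 gained, 0.0448), and 3390 rows were called in all. The deviations of same-numbered libraries from their group means correlated at -0.02, -0.03 and -0.18, so the numbers were not treated as pairing the libraries. DESeq2 called 24 members lower, 22 of them the same. The cause of these shifts was not tested. Depth limits the 14 members with a mean under 50 counts, of which 4 were not tested.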
